A study of Rattus norvegicus with 19 samples.

Results

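The genes described here encode the subunits of voltage-gated sodium channels (Nav), voltage-gated calcium channels (Cav) and hyperpolarization-activated cyclic nucleotide-gated (HCN) channels. They were chosen by a rule on the symbol, with earlier results of these data known: *Scn* genes with a number and the letter a or b, *Cacna1*, *Cacna2d1* to *Cacna2d4*, *Cacnb1* to *Cacnb4*, *Cacng1* to *Cacng8* and the numbered *Hcn* genes. The rule found 44 of the 32623 genes in the files, and 39 of them passed the filter on low counts, as did 15440 genes in all. RNA was sequenced from the hippocampus of 19 adult male Sprague Dawley rats, an outbred stock, with 1 library per animal. In this line, CRISPR/Cas9 removed or duplicated the *Sult1a1*-*Spn* interval of rat chromosome 1, which corresponds to the human 16p11.2 region. The groups were 6 wild-type (wt) rats with 2 copies of the interval, 4 heterozygous deletion carriers (Del/+) with 1 copy, 5 heterozygous duplication carriers (Dup/+) with 3 copies, and 4 rats with a deleted and a duplicated chromosome (Del/Dup), which hold 2 copies. No drug or other treatment is named for these rats, and their exact age is not given in the sources used here. Both changes are inherited through the germline and so are carried by all cell types of the animal.

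Nav channels carry the fast inward current of the action potential. Their pore is formed by a single large alpha subunit, and smaller beta subunits adjust gating, surface density and cell adhesion. Cav channels turn depolarization into calcium entry and are grouped by their *Cacna1* pore subunit into the high-voltage P/Q, N, L and R types and the low-voltage T type, with alpha2delta and beta subunits that carry the channel to the membrane. Several *Cacng* products are known above all as transmembrane AMPA receptor regulatory proteins (TARPs), and HCN channels pass the current that opens on hyperpolarization in dendrites and pacemaking neurons.

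The libraries held between 16191192 and 38760645 reads assigned to genes. The entry for reads aligned to more than 1 place (the multi-mapped share) made up 40.1% to 50.5% of the total of each count file in all wt and Dup/+ libraries and in Del/+ replicate 4. It made up 57.8% to 76.3% in Del/+ replicates 1 to 3 and every Del/Dup library. For wt replicate 5 the description reads wt and the genotype field Dup/+, and it was counted as wt. Of the cell type marker lists, the choroid plexus list differed most between libraries, with a summed level from 2.79 to 34.1 CPM (read counts scaled to library size) in wt, 4.92 to 1259.8 CPM in Del/+, 6.19 to 406 CPM in Dup/+ and 41.1 to 1209 CPM in Del/Dup. Every Del/Dup library was above every wt library, and all 6 tested genes of the list had an unadjusted p under 0.05 and a higher value in both Del/+ and Del/Dup against wt, none called. Of all genes tested, 8.77% had such a p and a higher value in Del/+ and 8.15% in Del/Dup. For 1.33% of all genes every Del/Dup library was above every wt library. As a reference for the genotype, *Prrt2*, a gene of the interval whose product binds Nav channels, fell from 159 ± 6.60 CPM (mean ± SD, n = 6) in wt to 71.4 ± 4.83 CPM (n = 4) in Del/+ and rose to 209 ± 8.93 CPM (n = 5) in Dup/+. In Del/Dup it stood at 136 ± 6.47 CPM (n = 4). The 6 wt libraries, replicate 5 included, held 153 to 169.6 CPM of *Prrt2*, below the 196 to 219 CPM of Dup/+.

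A gene is termed called where the quasi-likelihood test of edgeR gave a Benjamini-Hochberg adjusted p under 0.05 over all 15440 genes. Levels are CPM on scaled library sizes, not divided by gene length, so that they compare groups for a gene but not genes with each other. Fold changes are on the log2 scale with their standard error (SE).

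The promoters of *Scn4b* and *Cacnb3* are shown first, since both genes are called below. *Scn1a*, also called, did not match the promoter table. Each is the 250 bases before the start of the gene on the plus strand of the GRCr8 assembly (RefSeq), written 5′ to 3′, with capitals where the GC box GGGCGG occurs on either strand. *Scn4b* lies at chr8:54343623-54343872 and *Cacnb3* at chr7:131666301-131666550.
Scn4b: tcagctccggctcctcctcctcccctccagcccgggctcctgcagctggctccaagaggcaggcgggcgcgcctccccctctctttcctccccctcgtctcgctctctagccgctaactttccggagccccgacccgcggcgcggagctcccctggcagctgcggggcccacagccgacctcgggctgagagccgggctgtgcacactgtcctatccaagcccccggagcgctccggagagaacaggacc
Cacnb3: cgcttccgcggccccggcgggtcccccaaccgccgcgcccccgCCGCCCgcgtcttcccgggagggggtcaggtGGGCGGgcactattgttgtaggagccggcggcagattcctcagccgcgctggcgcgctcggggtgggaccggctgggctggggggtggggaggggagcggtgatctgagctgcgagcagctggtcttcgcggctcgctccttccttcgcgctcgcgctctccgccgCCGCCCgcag
The *Cacnb3* window held 3 GC boxes and the *Scn4b* window 0, at a GC content of 76.4% and 71.6%. Of the 44 genes, 28 matched the promoter table, with 31 windows. A GC box stood in 16 of these windows (51.6%) against 30.5% of all 33469 windows of that length. The E box CACGTG stood in 0 of the 31 against 5.59%, TGACG (the core of a cAMP response element) in 5 (16.1%) against 18.2%, and TATAAA in 2 (6.45%) against 12.9%. These motifs were searched on both strands, and no binding was measured in these data.

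**Figure D1:**
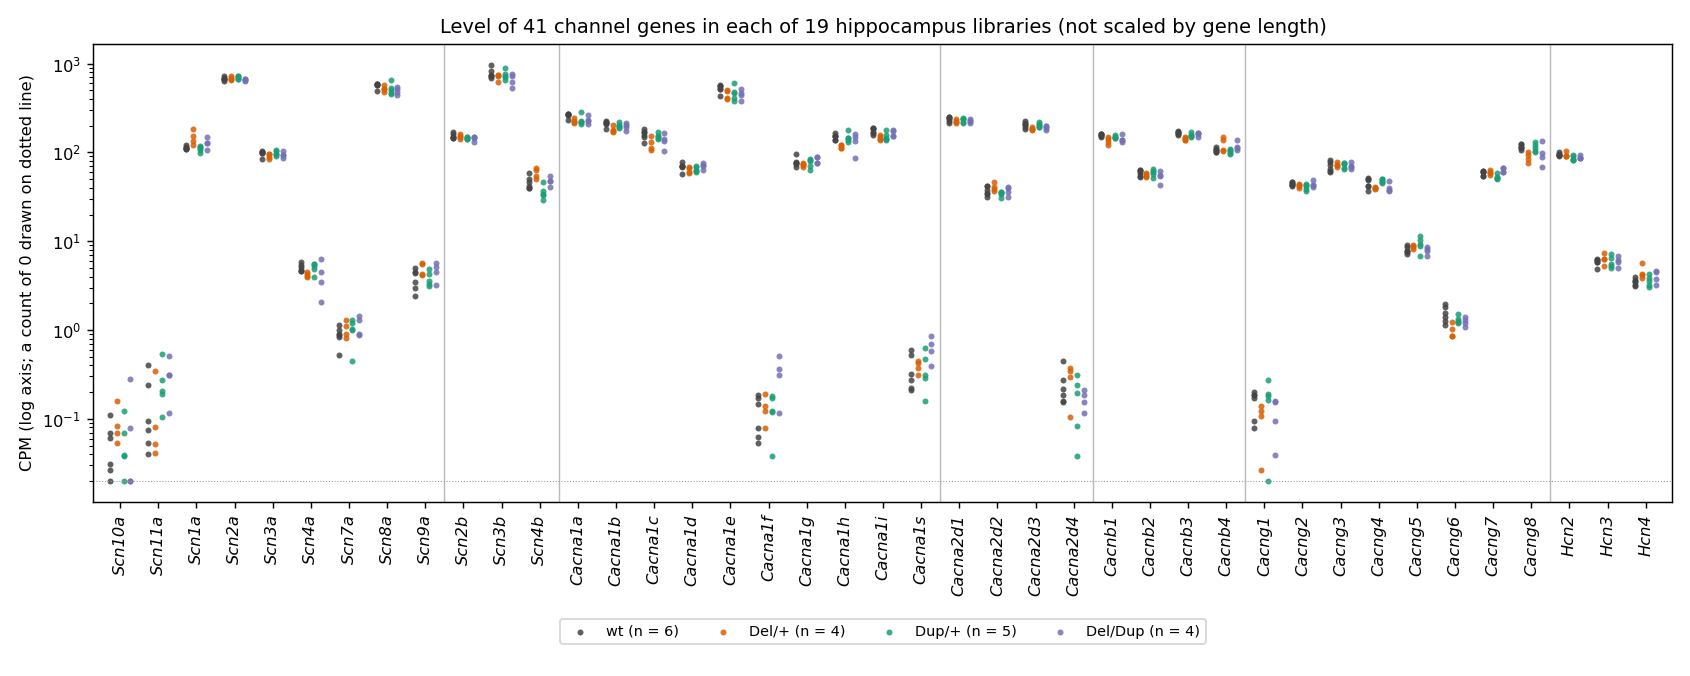
Level of 41 of the 44 genes (horizontal axis, by subfamily) in each of the 19 libraries (points, coloured by group) in CPM on a log axis, with a count of 0 drawn on the dotted line. The groups overlap for most genes, and the points spread most for genes of few reads, such as *Scn11a* (0.0398 to 0.538 CPM).

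The 5 genes that did not pass the filter were *Scn10a* and *Scn11a*, sodium channels of peripheral sensory neurons, *Cacna1f*, the L type channel of the retina, *Cacna2d4*, and *Cacng1*, the gamma subunit of skeletal muscle. Their highest value in any library was 0.280, 0.538, 0.514, 0.445 and 0.277 CPM, and no test was run on them. *Cacna1s*, the L type channel of skeletal muscle, passed with 4 to 22 reads per library. The pore genes known as the principal sodium channels of brain neurons were present at wt means of 113 (*Scn1a*), 678 (*Scn2a*), 98.0 (*Scn3a*) and 569 CPM (*Scn8a*). Spread between wt animals was narrow for many genes. The coefficient of variation over the 6 wt libraries was 2.55% for *Cacnb1*, 3.61% for *Cacnb3*, 3.90% for *Scn1a* and 4.18% for *Scn2a*, but 16.5% for *Scn4b*.

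With 1 copy of the interval, *Scn1a* rose and *Cacnb3* fell. *Scn1a* encodes Nav1.1, the alpha subunit known for its role in fast-spiking interneurons. *Cacnb3* encodes a cytoplasmic beta subunit that brings high-voltage calcium channels to the membrane. These 2 of 39 tested genes were called in Del/+ against wt, where 0.771% of all genes tested were called (0.304% higher and 0.466% lower). Another 13 had an unadjusted p under 0.05 without being called, for a total of 15 of 39 (4 higher, 11 lower) against 18.4% of all genes tested (8.77% higher, 9.68% lower). The median log2 fold change over the 39 was -0.08, against 0.00048 over all genes tested, and 24 of the 39 values were below 0, against 49.8% of all genes.

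In wt, *Scn1a* ranged from 108 to 120.5 CPM with a median of 111 CPM. The Del/+ animals, replicates 1 to 4, had 123, 183, 136 and 155 CPM. Every Del/+ library was above every wt library, and replicate 2 was the highest. The log2 fold change was 0.40 (SE 0.090, adjusted p = 0.0417, edgeR), or 1.32-fold. Dup/+ animals had 97.3, 106, 114, 117 and 113 CPM, which overlaps wt. Among the Del/Dup animals, replicate 2 stood at 151 CPM and replicates 3 to 5 at 107, 127 and 127 CPM (log2 fold change 0.18 against wt, adjusted p = 0.325).

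The level of *Cacnb3* in wt ran from 158 to 175 CPM around a median of 167 CPM. Del/+ animals had 151, 137, 145 and 139.7 CPM, all below the lowest wt library. The log2 fold change was -0.22 (SE 0.046, adjusted p = 0.0230, edgeR). Values of 156, 158, 148, 171 and 154 CPM in Dup/+, and of 160.5, 167, 164 and 147 CPM in Del/Dup, overlapped wt.

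Neither call held in every fit. In a fit with a term for the multi-mapped share, split at 55%, the changes were 0.46 for *Scn1a* (adjusted p = 0.186) and -0.26 for *Cacnb3* (adjusted p = 0.154). Del/+ replicate 4, the Del/+ library with a low share, compared with wt alone gave the same values, 0.46 for *Scn1a* (adjusted p = 0.0188) and -0.26 for *Cacnb3* (adjusted p = 0.135). There 2 of the 39 genes were called, *Scn1a* and *Cacnb1* (-0.37, adjusted p = 0.0378), against 0.651% of all genes. Both fits rest on that single Del/+ library, assumed to vary like the wt libraries in the latter, and are not separate checks. Both genes also lost the call with the choroid plexus gene *Ttr* as a covariate, at changes of 0.41 (adjusted p = 0.0796) and -0.22 (adjusted p = 0.0596). *Ttr* held 5.12, 2.38, 1126 and 81.5 CPM in Del/+ replicates 1 to 4 and 0.921 to 27.4 CPM in wt, and the part of choroid plexus in these results was not tested further. *Scn1a* lost its call in 16 of 30 alternative fits, among them 13 of the 19 that left out a library, and *Cacnb3* in 8 of 30, among them the fit that moved wt replicate 5 to the Dup/+ group (adjusted p = 0.0515). Leaving out wt replicate 1, wt replicate 2, Del/+ replicate 2 or Del/+ replicate 4 ended both calls, with 0 genes called, and Del/+ replicate 2 lowered the *Scn1a* change to 0.29 (adjusted p = 0.199).

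**Figure D2:**
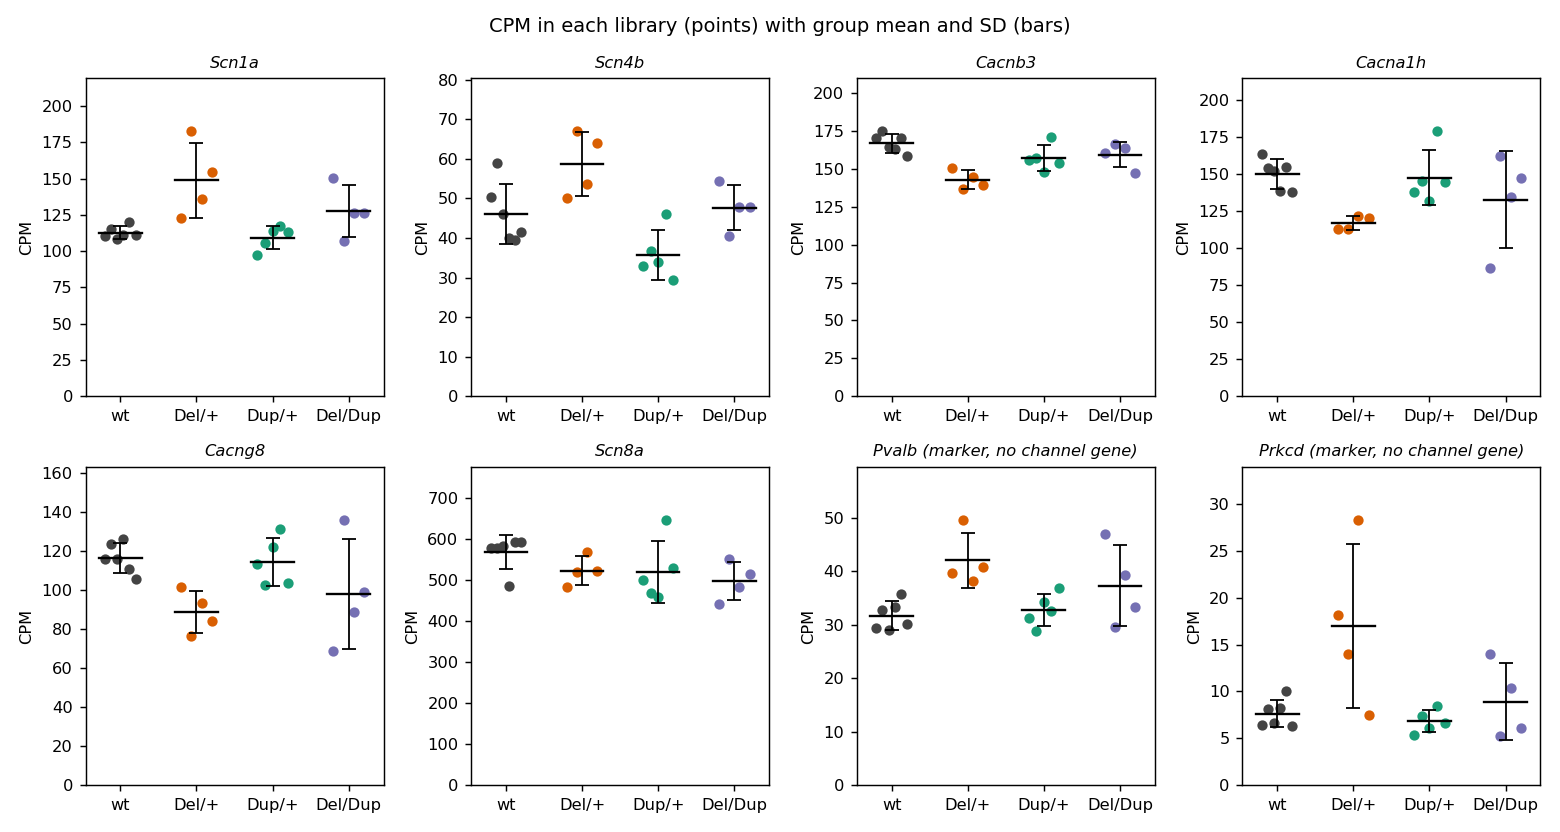
CPM of 6 channel genes and 2 marker genes in each library (points) by group, with the group mean (horizontal line) and SD (error bar), on axes that start at 0. *Scn1a* in Del/+ (123 to 183 CPM) lies above all wt libraries and *Cacnb3*, *Cacna1h* and *Cacng8* in Del/+ lie below them, while *Prkcd* is above the wt range in Del/+ replicates 1 to 3 but not in replicate 4 (7.44 CPM).

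*Scn4b* encodes the beta subunit beta4, which is linked to Nav alpha subunits by a disulphide bond and is known for resurgent sodium current in fast-firing neurons. Its level fell with the number of interval copies. In wt it ranged from 39.5 to 59.0 CPM with a median of 43.7 CPM. Del/+ animals had 50.1, 66.9, 53.6 and 64.1 CPM, Dup/+ animals 33.0, 36.7, 33.9, 46.1 and 29.3 CPM, and Del/Dup animals 54.5, 40.5, 47.7 and 47.9 CPM. The Del/+ and Dup/+ libraries did not overlap, and each of these groups overlapped wt.

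*Scn4b* was higher in Del/+ than in Dup/+ by 0.71 (SE 0.130, adjusted p = 0.00819, edgeR), a 1.64-fold difference. Its slope was -0.36 per copy of the interval (SE 0.063, adjusted p = 0.00479), the only call among the 39 genes for the slope, where 0.576% of all genes were called (0.395% higher, 0.181% lower). At an unadjusted p under 0.05 the slope held 12 of the 39 genes, 4 with a slope above 0 and 8 below, against 5.7% and 5.8% of all genes (11.5% together), and 16 of the 39 slopes were below 0, against 50.6%. In the test for any difference among the 4 groups it was again the only one of the 39 called (adjusted p = 0.0455), with 0.823% of all genes called there, and 18 of the 39 had an unadjusted p under 0.05, against 18.9%. Neither carrier group was called against wt: the Del/+ change was 0.35 (adjusted p = 0.141). That of Dup/+ was -0.36 (adjusted p = 0.340). The call for any difference was lost in 15 of 28 alternative fits, among them 12 of the 19 that left out a library (adjusted p 0.0137 to 0.120). The slope and the Del/+ against Dup/+ test use the same libraries and are not separate evidence.

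In Del/+ against Dup/+, 2 of 39 genes were called, *Scn4b* and *Scn1a*, both higher in Del/+, where 0.784% of all genes were called (0.298% higher, 0.486% lower). *Scn1a* differed by 0.44 (SE 0.095, adjusted p = 0.0306, edgeR), and its slope of -0.22 per copy was not called (adjusted p = 0.0592). In Del/+ against Dup/+ DESeq2 called the same 2 genes, with 1.84% of all genes called. The *Scn1a* slope was called by DESeq2 (adjusted p = 0.0107), which called 1.05% of all genes for the slope, and by edgeR with no filter (0.0460) and with a replicate block (0.0441). At an unadjusted p under 0.05 there were 17 of the 39 genes (8 higher, 9 lower) against 13.5% of all genes (6.54% higher, 6.93% lower), and 23 of the 39 values were below 0, against 49.7%. Besides *Scn1a* and *Scn4b*, the ranges of Del/+ and Dup/+ were apart for *Cacna2d2* (higher in Del/+) and for *Cacna1h*, *Cacna2d3*, *Cacng4* and *Cacng8* (lower). That made 3 higher and 4 lower of 39, against 2.33% and 2.97% of all genes, and these 5 further genes were not called by edgeR over all 19 libraries. *Cacng4*, for instance, a TARP, held 38.5 to 40.9 CPM in Del/+ and 45.2 to 50.5 CPM in Dup/+ (log2 fold change -0.28, adjusted p = 0.151), and it was called in a fit of these 2 groups alone (-0.27, adjusted p = 0.0191). In that fit *Scn1a* was not called (0.45, adjusted p = 0.0744), and over all alternatives its Del/+ against Dup/+ call was lost in 9 of 29.

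Markers of other cells moved in the same animals. Of the thalamus and habenula list, with 3 of 4 genes in the files and all 3 above 0 in every library, the summed level was 17.4 to 21.6 CPM in wt, 18.8 to 48.5 CPM in Del/+, 16.1 to 19.5 CPM in Dup/+ and 15.2 to 25.6 CPM in Del/Dup. All 3 genes had an unadjusted p under 0.05 and a higher value in Del/+ against wt, where 8.77% of all genes did, and against Dup/+, where 6.54% did. The member *Prkcd* was called in Del/+ against Dup/+ (1.31, adjusted p = 0.0367) and for the slope (-0.66, adjusted p = 0.0404). In Del/+ it held 18.1, 14.0, 28.3 and 7.44 CPM, against 6.33 to 10.0 CPM in wt. Del/+ replicate 4, with *Prkcd* within the wt range, had the second highest Del/+ values of *Scn1a* (155 CPM) and *Scn4b* (64.1 CPM). That is a single library. The part of thalamus and habenula tissue in the *Scn1a* and *Scn4b* values was not tested beyond the fit given next.

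With the thalamus and habenula level as a covariate, the *Scn4b* difference between Del/+ and Dup/+ was 0.72 (adjusted p = 0.0947), its slope was -0.37 (adjusted p = 0.0705) and the *Scn1a* change against wt was 0.41 (adjusted p = 0.128). The sizes were thus close to those above and the calls were lost. This fit was chosen after the data had been seen.

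*Pvalb*, the calcium-binding protein that marks fast-spiking interneurons, held 39.8, 49.6, 38.2 and 40.7 CPM in Del/+ against 28.9 to 35.7 CPM in wt (log2 fold change 0.40, adjusted p = 0.0650). The interneuron list, with all 5 genes above 0 throughout, summed to 630.2 to 722 CPM in wt, 659 to 775 CPM in Del/+, 653 to 715 CPM in Dup/+ and 622 to 689.5 CPM in Del/Dup, and 2 of the 5 had an unadjusted p under 0.05 and a higher value in Del/+, against 8.77% of all genes. Mean levels in wt and Del/+ were 275 and 300 CPM for *Gad1* and 304 and 315 CPM for *Gad2*. For *Sst* they were 50.1 and 49.6 CPM, slightly lower in Del/+, and for *Vip* 14.0 and 18.7 CPM. Del/+ replicate 2 had the highest *Pvalb*, *Scn1a* and *Scn4b* of its group, and Del/Dup replicate 2 the highest of each in Del/Dup. The part of interneurons in the *Scn1a* and *Scn4b* values was not tested. In bulk RNA, fewer or more cells of a type cannot be told apart from less or more RNA per cell.

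**Figure D3:**
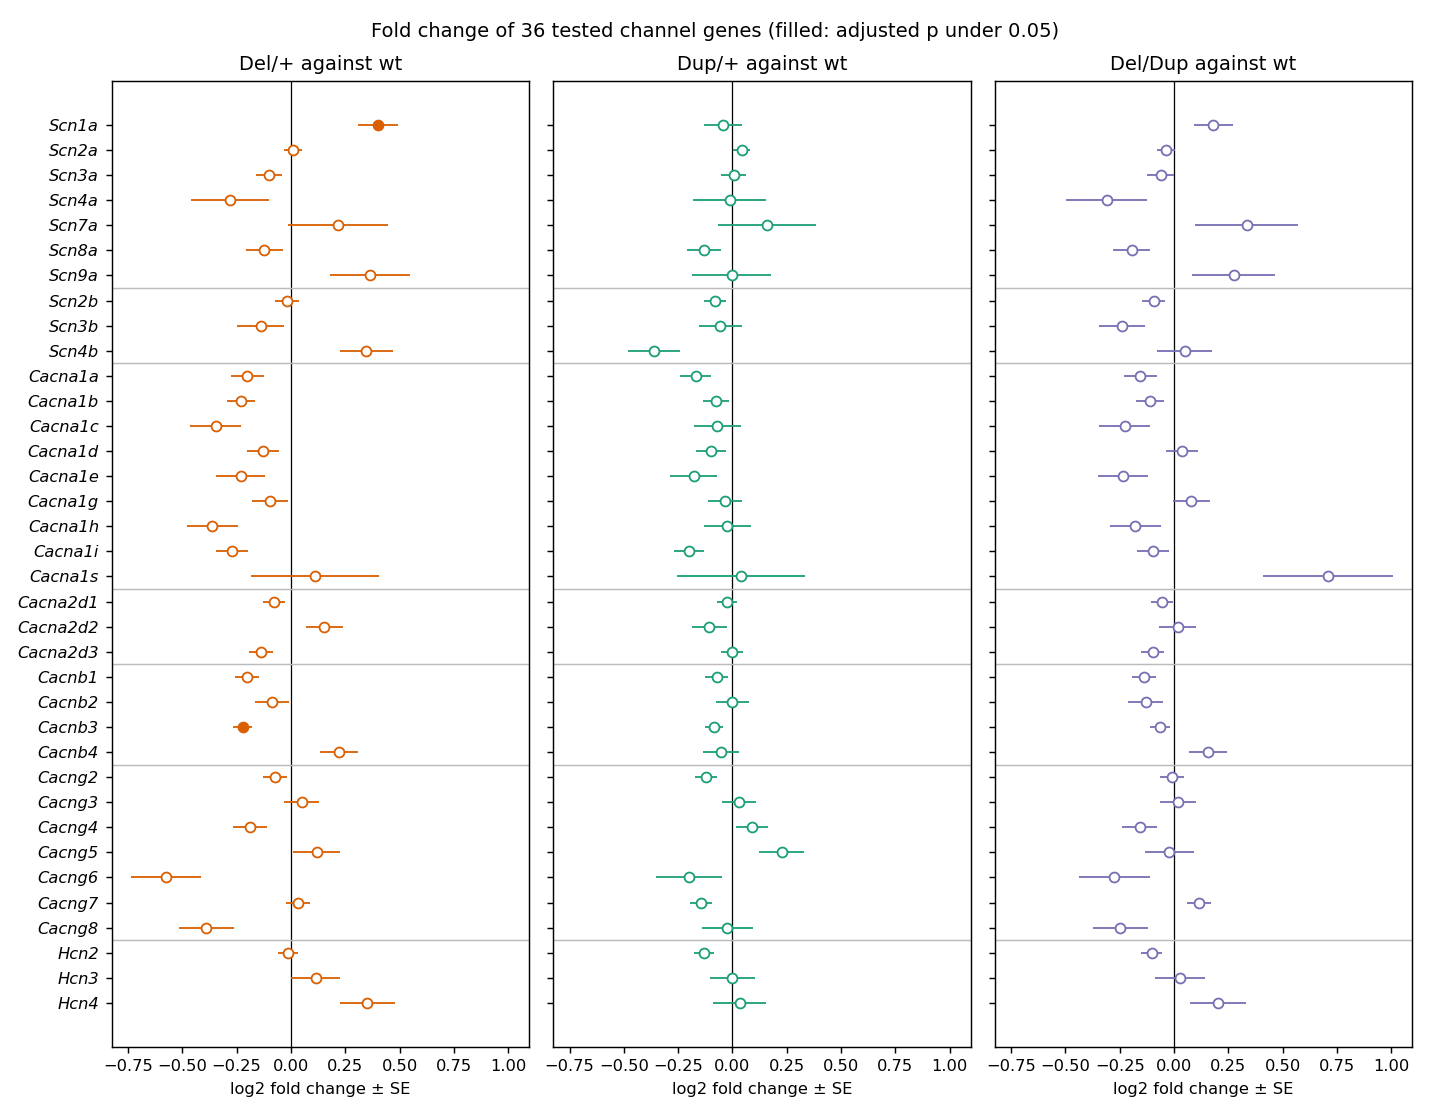
Log2 fold change against wt (points) with SE (bars) for 36 of the 39 tested genes, by subfamily, in Del/+, Dup/+ and Del/Dup, with filled points for an adjusted p under 0.05. The filled points are *Scn1a* (0.40) and *Cacnb3* (-0.22) in Del/+, and 8 of the 9 *Cacna1* points in Del/+ lie left of 0.

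Among the alpha subunit genes, *Scn1a* was the only call. *Scn2a*, the channel of excitatory axons, was level across groups at 678 ± 28.3 CPM (SD, n = 6) in wt, 683 ± 31.5 CPM (n = 4) in Del/+, 698 ± 25.2 CPM (n = 5) in Dup/+ and 661 ± 15.3 CPM (n = 4) in Del/Dup. Its log2 fold change against wt was 0.01 (SE 0.040), 0.04 (SE 0.038) and -0.04 (SE 0.040). *Scn3a*, an alpha subunit that is prominent before birth, had values of -0.10, 0.005 and -0.06. *Scn9a* lies next to *Scn1a* in the GRCr8 gene order and *Scn7a* next to *Scn9a*, and both stood at low levels. *Scn9a* had 3.82 ± 1.01 CPM (n = 6) in wt and 4.92 ± 0.810 CPM (n = 4) in Del/+ (0.36, adjusted p = 0.304). *Scn7a* had 0.880 ± 0.208 CPM (n = 6) in wt and 1.03 ± 0.211 CPM (n = 4) in Del/+.

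*Scn8a* encodes Nav1.6 of the axon initial segment and nodes. In wt it ran from 486 to 594 CPM with a median of 582 CPM, and wt replicate 4 was the lowest, with the others at 579 CPM or above. It held 441, 551, 484 and 514 CPM in Del/Dup, where its change of -0.19 had the third smallest unadjusted p among the 39 (SE 0.085, adjusted p = 0.266, edgeR). Del/+ had 482, 521, 567 and 521 CPM and Dup/+ 500.3, 467, 458, 646 and 529 CPM. All 3 carrier groups overlapped wt.

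Of the beta subunits, *Scn2b*, the neighbour of *Scn4b* in the gene order, changed by -0.02, -0.08 and -0.09 in Del/+, Dup/+ and Del/Dup, none called. *Scn3b* fell short of a call in every comparison, with changes of -0.14, -0.06 and -0.24.

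No *Cacna1* pore gene was called by edgeR over all 19 libraries in any comparison. Of these genes, 5 of the 9 tested had an unadjusted p under 0.05 in Del/+ against wt, all lower, where 9.68% of all genes had such a p and a lower value. They were *Cacna1a* (P/Q type, -0.20), *Cacna1b* (N type, -0.23), *Cacna1c* (L type, -0.35), *Cacna1h* and *Cacna1i* (both T type, -0.36 and -0.27), with adjusted p of 0.0797 to 0.163. The median of the 9 was -0.23 in Del/+, -0.08 in Dup/+ and -0.11 in Del/Dup. The 3 medians share the wt libraries.

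*Cacna1i*, a T type channel, held 156 to 190.4 CPM in wt with a median of 177 CPM. Del/+ animals had 149, 143, 155 and 137 CPM, all below wt (-0.27, SE 0.074, adjusted p = 0.0797, edgeR). Dup/+ animals had 139, 142, 147, 181 and 158 CPM, with replicates 4 and 5 within the wt range and the others below it (-0.20, adjusted p = 0.393, edgeR). In Del/Dup it was 154, 177, 176 and 152 CPM.

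*Cacna1h*, the T type channel Cav3.2, had no Del/+ library (113 to 122 CPM) within the wt range (138 to 164 CPM), with an adjusted p of 0.114. Del/Dup replicate 2 was lower still at 86.8 CPM, while replicates 3 to 5 had 162, 135 and 147 CPM. DESeq2 called *Cacna1h* (adjusted p = 0.0482), *Cacna1b* (0.0252) and *Cacna1i* (0.0230) in Del/+ against wt, where it called 7 of the 39 genes and 4.15% of all genes. In Del/Dup against wt, *Cacna1s* had the second smallest unadjusted p (0.71, SE 0.301, adjusted p = 0.259). It had 0.213 to 0.592 CPM in wt with a median of 0.296 CPM, and 0.701, 0.576, 0.857 and 0.392 CPM in Del/Dup, which overlap. In Del/+ it was 0.311, 0.369, 0.447 and 0.430 CPM and in Dup/+ 0.289, 0.623, 0.478, 0.308 and 0.158 CPM.

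*Cacna1d*, *Cacna1e* and *Cacna1g*, of the L, R and T types, had unadjusted p of 0.0988, 0.0556 and 0.271 in Del/+ against wt, at changes of -0.13, -0.23 and -0.10. In wt *Cacna1e* varied from 429 to 574 CPM, and the 13 carrier libraries from 377 to 601 CPM.

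The alpha2delta genes gave no call. The products of *Cacna2d1* and *Cacna2d2* are the binding sites of gabapentin. *Cacna2d1* changed by -0.08, -0.03 and -0.05 in Del/+, Dup/+ and Del/Dup and *Cacna2d3* by -0.14, -0.003 and -0.10. *Cacna2d2* was at 36.7 ± 4.32 CPM (n = 6) in wt, 41.0 ± 4.08 CPM (n = 4) in Del/+, 34.2 ± 1.96 CPM (n = 5) in Dup/+ and 37.1 ± 4.42 CPM (n = 4) in Del/Dup. Its Del/+ against Dup/+ difference of 0.26 was not called (adjusted p = 0.208).

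Among the beta subunits of calcium channels, *Cacnb1* had a negative and *Cacnb4* a positive change in Del/+ against wt, neither called by edgeR over all 19 libraries. *Cacnb1* held 151 to 161 CPM in wt with a median of 158 CPM, and 149, 132, 143 and 121 CPM in Del/+, all below wt (-0.20, SE 0.055, adjusted p = 0.0797, edgeR). DESeq2 called it there (adjusted p = 0.0227). In Del/Dup, where it had the smallest unadjusted p of the 39 (-0.14, SE 0.055, adjusted p = 0.233, edgeR), the animals had 133, 161, 138 and 139 CPM, with replicate 3 inside wt and the others below it. Dup/+ animals had 144, 151, 146, 158 and 148 CPM.

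*Cacnb4*, a beta subunit whose loss causes epilepsy and ataxia in mice, held 100.5 to 115 CPM in wt and 106, 149, 105 and 137 CPM in Del/+ (0.22, adjusted p = 0.179). Replicates 2 and 4 of Del/+ stood above all wt libraries and replicates 1 and 3 within them. Replicates 2 and 4 were also the 2 highest Del/+ libraries for *Scn1a* and *Scn4b*. *Cacnb2* changed by -0.09, -0.0001 and -0.13.

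The *Cacng* genes also gave no call by edgeR over all 19 libraries. DESeq2 called *Cacng7*, a TARP, for any difference among the groups (adjusted p = 0.0163), where it called 5 of the 39 genes and 4.79% of all genes. In Del/+ against wt, *Cacng8*, the TARP known for its abundance in hippocampal pyramidal neurons, held 76.5 to 101 CPM, apart from the 106 to 126 CPM of wt (-0.39, adjusted p = 0.117). DESeq2 called it (adjusted p = 0.0491). In Del/Dup it ranged from 68.6 CPM in replicate 2 to 136 CPM in replicate 3, and it was called there when replicate 3 was left out, with 1 of the 39 genes and 1.38% of all genes called in that fit. *Cacng6* changed by -0.58 in Del/+ (adjusted p = 0.0853) on 20 to 58 reads per library. *Cacng2* (stargazin), *Cacng3*, *Cacng5* and *Cacng7* had changes of -0.07, 0.05, 0.12 and 0.03. *Cacng6*, *Cacng7* and *Cacng8* are neighbours in the gene order, as are *Cacng1*, *Cacng4* and *Cacng5*.

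No marker gene of CA3 or the dentate gyrus was called against wt. The dentate granule list summed to 255 to 333 CPM in wt, 185 to 245 CPM in Del/+, 239 to 318 CPM in Dup/+ and 139 to 337 CPM in Del/Dup. The CA3 list summed to 344 to 497 CPM in wt, 293 to 409.96 CPM in Del/+, 365 to 442 CPM in Dup/+ and 274 to 415 CPM in Del/Dup. Of the 4 tested dentate genes 3, and of the 3 tested CA3 genes 2, had an unadjusted p under 0.05 and a lower value in Del/+, against 9.68% of all genes, while the dentate gene *Dsp* stood at 22.2 CPM in wt and 22.9 CPM in Del/+. The dentate gene *Tdo2* and the CA3 gene *Iyd* were at 0 in at least 1 library. The oligodendrocyte list, with all 5 genes above 0, summed to 4612 to 5998 CPM in wt and 5439 to 8214 CPM in Del/+, and 4 of the 5 had such a p and a higher value in Del/+, against 8.77% of all genes. Of the astrocyte, microglia and vascular lists, 2 of 5, 2 of 5 and 2 of 3 tested genes had such a p and a lower value. The part of these cell types in the lower *Cacna1*, *Cacnb* and *Cacng* values was not tested.

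**Figure D4:**
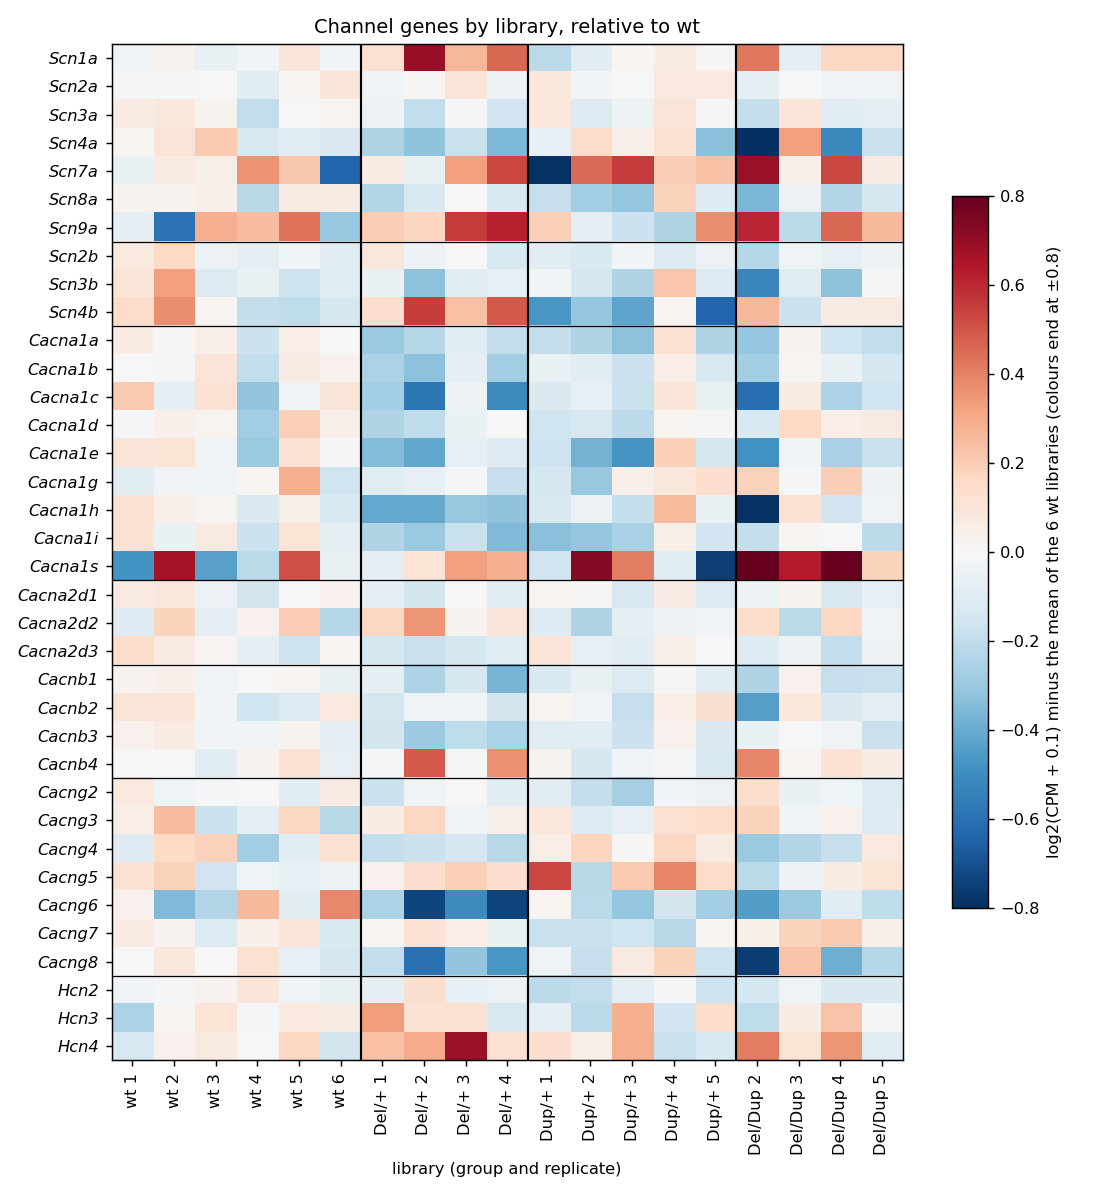
Deviation of log2(CPM + 0.1) from the mean of the 6 wt libraries for 36 of the 39 tested genes (rows, by subfamily) in each library (columns), red for higher and blue for lower, with colours that end at 0.8. Most *Cacna1* rows are blue in Del/+, and Del/Dup replicate 2 carries blue in *Cacna1h* (86.8 CPM) and *Cacng8* (68.6 CPM) together with red in *Scn1a* (151 CPM).

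No *Hcn* gene was called in any comparison. *Hcn2*, a main HCN channel of the forebrain, ran from 91.3 to 101 CPM in wt with a median of 93.8 CPM. It held 82.4, 82.8, 90.4, 94.4 and 84.5 CPM in Dup/+, with 4 of 5 animals below wt, at the third smallest unadjusted p in that comparison (-0.13, SE 0.045, adjusted p = 0.388, edgeR). Del/+ animals had 90.6, 104, 91.0 and 92.0 CPM and Del/Dup animals 86.4, 92.7, 87.6 and 87.5 CPM. *Hcn4*, the pacemaker channel of the sinoatrial node and thalamus, was at 3.50 ± 0.297 CPM (n = 6) in wt and 4.48 ± 0.828 CPM (n = 4) in Del/+, highest in replicate 3 at 5.69 CPM (0.35, adjusted p = 0.146). Del/+ replicate 3 also held the highest *Prkcd*, 28.3 CPM, and the part of thalamus tissue in the *Hcn4* values was not tested. *Hcn3* changed by 0.11, -0.001 and 0.03.

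With 3 copies of the interval, 0 of the 39 genes were called against wt, where 0.272% of all genes were (0.214% higher, 0.0583% lower). DESeq2 also called 0 of the 39, with 0.518% of all genes. By edgeR 8 genes had an unadjusted p under 0.05 (1 higher, 7 lower), against 8.94% of all genes (4.46% higher, 4.48% lower). They included *Scn4b*, *Hcn2*, *Cacna1i*, *Cacng7*, *Cacna1a*, *Cacng2* and, as the higher gene, *Cacng5* (0.23, adjusted p = 0.541). The median over the 39 was -0.04, with 29 values below 0, against 50.8% of all genes. None of the 39 had Dup/+ libraries apart from wt, where 0.674% of all genes were apart and higher and 0.499% apart and lower.

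In Del/Dup, with 2 copies as in wt, 0 of the 39 genes were called by edgeR and 0 by DESeq2, where edgeR called 0.0907% of all genes (0.0453% each way) and DESeq2 1.19%. There were 5 genes at an unadjusted p under 0.05 (1 higher, 4 lower), against 16.2% of all genes (8.15% higher, 8.06% lower), namely *Cacnb1*, *Cacna1s*, *Scn8a*, *Scn3b* and *Hcn2*. The median over the 39 was -0.06, with 25 values below 0, against 49.7% of all genes, and none was apart from wt, against 1.33% higher and 1.22% lower. All Del/Dup libraries had a high multi-mapped share and all wt libraries a low share, so that genotype and share cannot be told apart in this comparison.

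In Del/+ against wt, by contrast, 7 of the 39 genes had non-overlapping libraries, *Scn1a* higher and *Cacna1h*, *Cacna1i*, *Cacnb1*, *Cacnb3*, *Cacng8* and *Scn4a* lower. All genes tested were apart and higher in 2.23% and apart and lower in 2.7%. *Scn4a*, the channel of skeletal muscle, stood at 5.08 ± 0.495 CPM (n = 6) in wt and 4.16 ± 0.237 CPM (n = 4) in Del/+ (adjusted p = 0.430). Whether Del/+ differs from Dup/+ or Del/Dup in such counts was not tested.

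Genes whose products partner these channels were listed alongside, 49 symbols of which 46 were found. They gave 47 tested genes, since *Calm2* names 2 gene entries. They cover Nav scaffolds and modulators, Cav regulators, AMPA receptor subunits, HCN partners, the sodium leak channel and organelle channels. *Calm3*, *Shisa9* and *Fam155a* had no match by symbol and are not analysed here. In Del/+ against wt 1 of 47 was called, *Prrt2* (-1.15, SE 0.049, adjusted p = 4.47e-12, edgeR), and 15 had an unadjusted p under 0.05 (5 higher, 10 lower), against 0.771% and 18.4% of all genes. In Dup/+ it was again *Prrt2* alone (0.40, SE 0.044, adjusted p = 4.37e-05), and 6 had an unadjusted p under 0.05, against 0.272% and 8.94% of all genes. In Del/Dup 0 were called by edgeR, with 16 at an unadjusted p under 0.05, against 0.0907% and 16.2% of all genes, and *Prrt2* had the smallest (-0.23, adjusted p = 0.0713).

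In Del/+ against Dup/+ 2 of 47 were called, *Prrt2* (-1.55) and *Mcu*, the pore of the mitochondrial calcium uniporter (-0.25, SE 0.056, adjusted p = 0.0411, edgeR). Of all genes 0.784% were called there. At an unadjusted p under 0.05 there were 14 of the 47 (3 higher, 11 lower), against 13.5% of all genes. *Mcu* was at 28.2 ± 1.08 CPM (n = 6) in wt, 25.5 ± 1.01 CPM (n = 4) in Del/+, 30.2 ± 1.48 CPM (n = 5) in Dup/+ and 25.9 ± 2.31 CPM (n = 4) in Del/Dup. The Del/+ libraries (24.1 to 26.4 CPM) lay below the Dup/+ libraries (29.1 to 32.7 CPM), as was so for 2.97% of all genes.

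**Figure D5:**
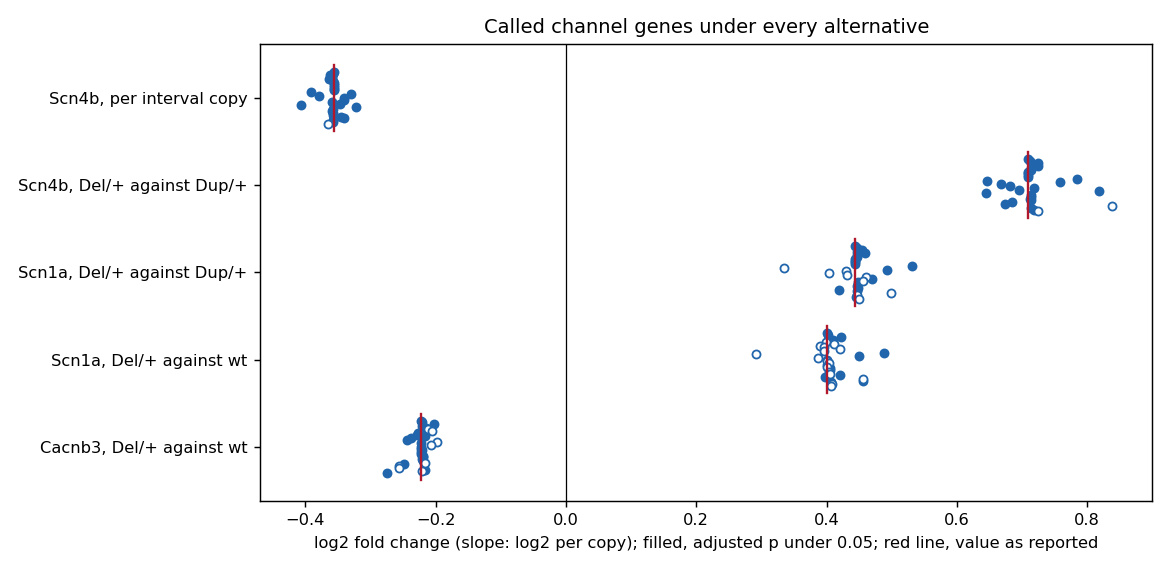
Log2 fold change (horizontal axis, slope in log2 per copy) of each called gene and comparison as reported (red line) and under each alternative (points), filled where the adjusted p was under 0.05. All points of a row keep the sign of the reported value, and the *Scn4b* slope has a single open point, the fit with the thalamus and habenula level as a covariate (-0.37).

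Of the 3 genes called, *Scn4b* held its slope call in 27 of 28 alternative fits and its Del/+ against Dup/+ call in 27 of 29, the exceptions being the thalamus and habenula covariate for both and the multi-mapped term for the latter (0.84, adjusted p = 0.0887). Its slope in the fit with the multi-mapped term was -0.36 (adjusted p = 0.0388). No library decided these calls, since leaving out each in turn gave slopes of -0.41 to -0.32, all called. Its call for any difference was the least stable of the 3, as given above.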

How the data were processed

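Hippocampal RNA of 19 rats was sequenced by the authors as 50-base single-end reads from stranded TruSeq total RNA libraries (polyA RNA per the molecule field, rRNA removal per the protocol). Per the paper's methods they aligned reads with HISAT2 to Rno6, Ensembl v96, and counted with HTSeq. The deposited values are raw counts per gene, used as deposited. HTSeq leaves out multi-mapped reads, so that counts of near-identical stretches of paralogous *Scn* or *Cacn* genes may be low. The 5 summary lines were left out of tests.

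Genes were filtered by filterByExpr, scaled by TMM and fitted with the quasi-likelihood model of edgeR 4.0.16 (R 4.3.3, prior count 2), on all 19 libraries with group as the sole term. Tested were the contrasts of Del/+, Dup/+ and Del/Dup with wt, that of Del/+ with Dup/+, a slope on copies (1, 2 or 3) and any difference. DESeq2 1.42.0, other scalings, no filter, covariates and left-out libraries were alternatives. In the fit within low multi-mapped share, Del/+ was a single library assumed to vary like the others. The method was tested on simulated data. The common biological coefficient of variation was 0.101, so that replicate spread exceeded counting error except in genes of few reads, such as *Cacna1s* and *Cacng6*.

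The genes and lists (including 14 cell type marker lists) were chosen with earlier results of these data known. The genes of the family are named, except 3 that are not reported here but stay in the fits and counts. Per-library values are printed for called genes and the 3 smallest unadjusted p in each comparison against wt; the remaining criterion, the highest level per coding length, was not applied since no transcript lengths were used. Other per-library values were chosen after they were seen. Partners are named where called or of smallest p against wt.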

Additional observations from a re-analysis of the deposited data

Results flagged for a closer look

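In groups of 4 to 6 animals, 10 of 144 gene and group combinations had a library set apart from the others of its group by Dixon's criterion, where chance gives about 1 in 20. wt replicate 4 was low for *Scn8a* (486 CPM, others 579 to 594), *Scn3a* (85.2 CPM, others 97.7 to 104) and *Cacna1a* (231 CPM, others 261 to 271). Dup/+ replicate 4 was high for *Cacna1a* (283 CPM, others 207 to 228). wt replicate 5, whose label fields disagree, was high for *Cacna1g* (94.95 CPM, others 69.4 to 78.3). wt replicate 1 was low for *Hcn3* (4.87 CPM, others 5.79 to 6.30) and Dup/+ replicate 5 high for *Cacng7* (59.1 CPM, others 50.0 to 52.2). Del/+ replicate 2, the library with the highest *Scn1a* of its group, was high for *Hcn2* (104 CPM, others 90.6 to 92.0) and low for *Scn3b* (615 CPM, others 724 to 746). Del/Dup replicate 2 was low for *Scn2b* (131 CPM, others 146 to 149).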

How the results depend on the processing

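No called gene changed direction in any alternative fit. The medians over the 39 genes moved by less than the spread between replicates, but without Dup/+ replicate 4 the medians near 0 crossed it, in Del/+ against Dup/+ (-0.03 to 0.003) and for the slope (0.01 to -0.0001). The number of channel genes called was 2 in Del/+ against wt, 0 in Dup/+, 0 in Del/Dup, 2 in Del/+ against Dup/+, 1 for the slope and 1 for any difference. DESeq2 gave 7 in Del/+ against wt (adding *Cacna1b*, *Cacna1h*, *Cacna1i*, *Cacnb1* and *Cacng8*), 2 for the slope and 5 for any difference, where it called 4.15%, 1.05% and 4.79% of all genes. With no filter, 2 were called for the slope and 2 for any difference (0.374% and 0.608% of all genes). With the term for multi-mapped share, 0 were called in Del/+ against wt, 0 in Del/+ against Dup/+ and 0 for any difference. With *Ttr* as a covariate, 0 were called in Del/+ against wt and 0 for any difference. With the thalamus and habenula level as a covariate, chosen after seeing the data, 1 was called in Del/+ against wt (*Cacnb3*), 0 in Del/+ against Dup/+, 0 for the slope and 0 for any difference. The shares of all genes called are not given here for the fits with the multi-mapped term, *Ttr* or the thalamus and habenula level. Their counts therefore do not set the channel genes apart from a loss of calls over all genes. With wt replicate 5 counted as Dup/+, 1 was called in Del/+ against wt (*Scn1a*; 0.525% of all genes), and in a fit of the 2 groups alone 4 were (1.02%). The cause of these shifts was not tested.

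Leaving out each library in turn, the counts ranged from 0 to 4 in Del/+ against wt, 0 to 0 in Dup/+, 0 to 1 in Del/Dup, 1 to 3 in Del/+ against Dup/+, 1 to 2 for the slope and 0 to 5 for any difference. The shares of all genes called in these fits ranged, in the same order, from 0.295% to 2.16%, 0.175% to 0.282%, 0.0128% to 1.38%, 0.385% to 1.25%, 0.308% to 0.796% and 0.391% to 2.67%. *Scn1a* lost its call against wt in 13 of 19 such fits (log2 fold change 0.29 to 0.49) and its call against Dup/+ in 6 (0.33 to 0.53), *Cacnb3* in 4 (-0.24 to -0.20), and *Scn4b* lost the call for any difference in 12 (adjusted p 0.0137 to 0.120). Replicate numbers did not pair the animals: 2 of 24 same-numbered pairs had a correlation above 0.1 (-0.17 to 0.12), and 0 of 19 libraries correlated best with their own number. With a replicate block, 2 genes were called for the slope and 2 for any difference (*Scn1a* and *Scn4b*; 0.499% and 0.492% of all genes), with the other counts as above. Genes of few reads, such as *Cacna1s* and *Cacng6*, are limited by depth.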

Other observations

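Taken library by library, the median deviation of the 39 tested channel genes from the wt mean, on a log2 scale, ran from -0.07 to 0.05 in wt and from -0.10 to -0.02 in Del/+. In Dup/+, replicates 1, 2, 3 and 5 had -0.09, -0.12, -0.08 and -0.05 and replicate 4 had 0.05. In Del/Dup, replicate 2 had -0.14 and replicates 3 to 5 had 0.0002, -0.04 and -0.04. The same median over all genes tested stayed between -0.004 and 0.005 in every library.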
